A study of Mus musculus with 4 samples.

Results

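Apart from Il10ra, the receptor chains described here are those through which T cells read the interleukin 2 and interleukin 6 families of cytokines. The chains are Il2rb, Il2rg, Il6ra, Il6st, Il21r, Il10ra, Il15ra, Il27ra, Il9r and Lifr. Of these 10 genes, 9 were measured, out of 19938 genes with a value. Each was read from the probe set that the platform annotation assigns to that 1 gene symbol. Il2rg, which encodes the common gamma chain itself, was not analysed here, because the annotation table used gave it no probe set of its own. The arrays came from CD4+ cells of the spleen of C57BL/6 mice. One group held 2 arrays of CD4+ splenocytes of wild type mice. The other held 2 arrays of CD4+ lymphoma cells formed in the spleen of Tet2 homozygous gene trap mice. Tet2 is an enzyme that oxidises methylated cytosine in DNA, and a gene trap is an insertion that breaks the transcript. No age is given in the labels. No mouse carried the gene trap without lymphoma, so genotype and tumour cannot be told apart.

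Receptors of these families have no kinase activity of their own. A ligand brings chains together at the membrane, JAK kinases bound to their tails become active, and STAT transcription factors are phosphorylated and move to the nucleus. The common gamma chain serves the receptors for interleukins 2, 4, 7, 9, 15 and 21, which govern survival, growth and helper function of T cells. The chain gp130, encoded by Il6st, serves interleukins 6 and 27 and leukaemia inhibitory factor, each together with a more specific partner. In CD4+ T cells interleukins 6 and 21 are known for their part in follicular helper and T helper 17 differentiation.

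None of the 9 measured chains passed the test between lymphoma and wild type (limma, adjusted p under 0.05), where 4.27% of all genes did, 1.82% as higher and 2.46% as lower. At an unadjusted p under 0.05 there were 2 chains, Il10ra and Il9r, against 15.6% of all genes. The log2 differences, lymphoma minus wild type, were positive for 4 chains and negative for 5. They ran from -0.85 for Lifr to 0.49 for Il2rb, with a median of -0.61 beside -0.04 over all genes. This median is the value of Il6st, which averages -0.22 on lymphoma array 1 and -0.99 on lymphoma array 2. It therefore does not show a shift shared by the chains or by both lymphoma arrays. Values of the groups did not overlap for 6 chains, with 3 above and 3 below wild type. Of all genes 44.1% had groups that did not overlap, 20.6% with lymphoma above and 23.5% with lymphoma below. The median SE of a difference was 0.21 for the chains and 0.20 for all genes. Because each group had 2 arrays, a difference the size of those seen here was often within the error, and a missed threshold does not show that the groups were alike. The labels do not say that the samples of a group came from separate animals, so p-values measure the spread between these samples.

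**Figure D1:**
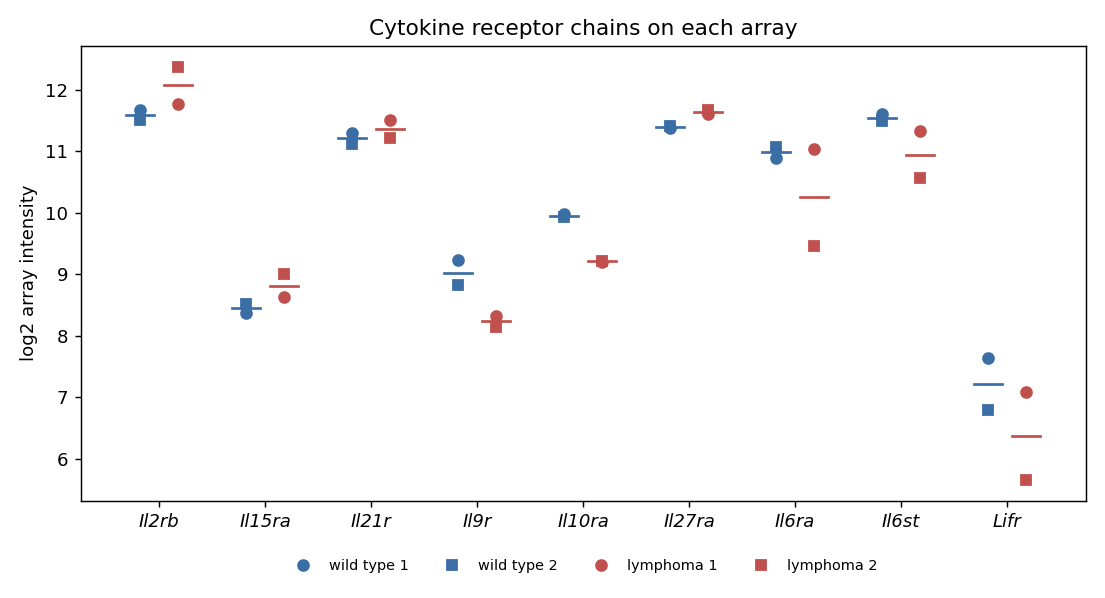
The log2 array intensity of each receptor chain is plotted for the 4 arrays, with wild type in blue, lymphoma in red, circles for replicate 1, squares for replicate 2 and a bar at each group mean. Both lymphoma values of Il10ra and Il9r lie below both wild type values, while Il6ra, Il6st and Lifr are lowest on lymphoma array 2. Levels of different genes are read by different probes and are not compared.

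Il2rb, Il15ra and Il21r belong with the common gamma chain. Il2rb encodes the beta chain shared by the receptors for interleukins 2 and 15, which carries much of their signal into the cell. Wild type intensities were 3241 and 2914, and lymphoma intensities were 3491 and 5313 (probe set 10430344). Both lymphoma values lay above both wild type values, the first by little and the second by more. The log2 difference was 0.49 (SE 0.23, 95% interval -0.06 to 1.04, limma adjusted p = 0.391). With lymphoma array 1 left out it was 0.79 (limma adjusted p = 0.031), and with lymphoma array 2 left out it was 0.18 (0.859). In the first of these settings lymphoma array 2 alone stood against the wild type pair, so it describes that array and not the group.

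Il15ra encodes the chain that binds interleukin 15 with high affinity and presents it to the beta and gamma chains, often on a neighbouring cell. Intensities were 332 and 367 in wild type and 395 and 510.0 in lymphoma (probe set 10469289). Again the groups did not overlap and lymphoma array 2 was the higher of the pair. The log2 difference of 0.36 (SE 0.20, 95% interval -0.13 to 0.86, limma adjusted p = 0.51) was within the error. Without lymphoma array 1 the Il15ra difference was 0.55, and without lymphoma array 2 it was 0.18.

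Il21r, the specific chain for interleukin 21, had intensities of 2515 and 2227 in wild type and 2921 and 2367 in lymphoma (probe set 10557342). Here the groups overlapped, since lymphoma array 2 lay between the wild type arrays. A log2 difference of 0.15 was found (SE 0.18, 95% interval -0.29 to 0.59, limma adjusted p = 0.815), and it was 0.30 without lymphoma array 2. This interval does not reach a 2-fold change in either direction, and the same holds for Il15ra and Il27ra.

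Il9r, the specific chain for interleukin 9, was lower on both lymphoma arrays. Intensities were 599 and 451 in wild type and 319 and 283 in lymphoma (probe set 10384974). No lymphoma value reached either wild type value, although the wild type arrays differed from each other more than the lymphoma arrays did. The log2 difference was -0.79 (SE 0.21, 95% interval -1.31 to -0.28), a 1.73-fold lower signal. Its unadjusted p was 0.0091 and its limma adjusted p was 0.12, so it did not pass the threshold over all genes. With wild type array 1 left out the Il9r difference was -0.59, and with wild type array 2 left out it was -1.0.

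Il10ra encodes the ligand-binding chain of the receptor for interleukin 10, a cytokine that restrains activation. It belongs to the class of the interferon receptors and uses neither the common gamma chain nor gp130. Wild type cells gave 1009 and 973 and lymphoma cells 589 and 596 (probe set 10593050). Replicates lay close together in both groups, and the groups were well apart. The mean intensity was 991 ± 25.1 (SD, n = 2) in wild type and 592 ± 4.71 (SD, n = 2) in lymphoma. The log2 difference was -0.74 (SE 0.17, 95% interval -1.16 to -0.33), or 1.67-fold lower, with an unadjusted p of 0.0044 and a limma adjusted p of 0.077. The lymphoma arrays differed from the wild type mean by -0.75 and -0.73, so no single array carried the difference. Across the 12 alternative settings the Il10ra adjusted p lay between 0.057 and 0.343 and never passed.

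Interleukin 10 receptors are also carried by B cells and myeloid cells, and markers of those cells moved with the group. All 7 measured B cell markers were lower in lymphoma and 6 of them passed, where 2.46% of all genes passed as lower. Their intensities summed to 17800 and 11900 in wild type and to 2650 and 2420 in lymphoma. These near-equal lymphoma sums hide a split. Cd22 read 652 on lymphoma array 1 and 1590 on array 2, while every other B cell marker was lower on array 2, as Cd79a was (519 and 168). For macrophages and monocytes 6 of 8 markers passed as lower, with sums of 8690 and 9170 in wild type against 2070 and 3170 in lymphoma. For dendritic cells 5 of 8 markers passed as lower, with sums of 5110 and 4280 against 914 and 906. For plasma cells 2 of 5 markers passed as lower, with sums of 10700 and 6540 against 3010 and 3560. Xbp1 was the largest part of the lymphoma sums (1811 and 2273), and Jchain read 519 and 89.5 there. The 2 markers of CD8 T cells did not pass, with sums of 1240 and 692 in wild type and 385 and 424 in lymphoma. No marker of the B cell, myeloid and dendritic cell lists was at 0, and the lowest intensity was 44.0. The part of such cells in the lower signals of Il10ra and Il9r, and of Il4ra, Il12rb2 and Clcf1 given further on, was not tested. Fewer cells of a type and less RNA per cell cannot be told apart in these bulk samples. Of the T cell markers Cd3d, Cd3e, Cd3g and Cd4 were above wild type on both lymphoma arrays and Cd5 was below, with no call among these 5. Each of these 5 had an intensity of at least 898 on every array.

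**Figure D2:**
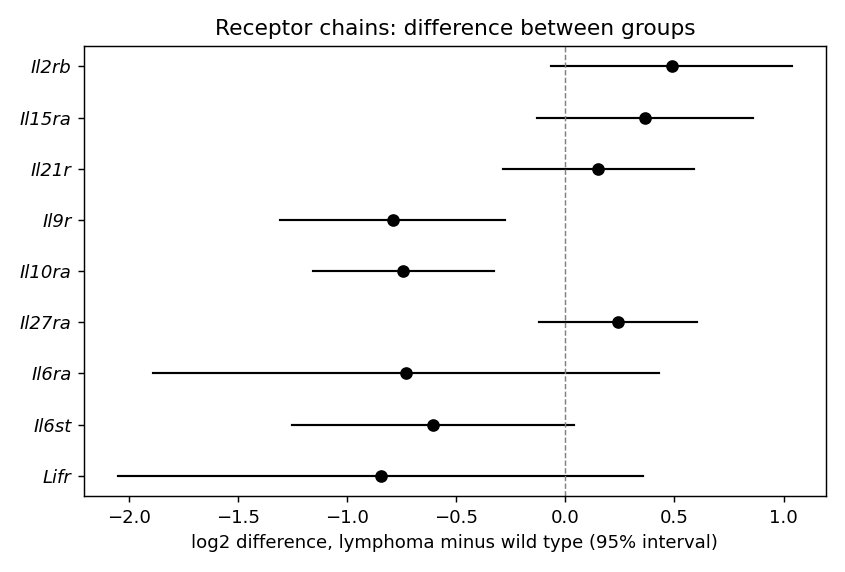
Points are the log2 differences of the receptor chains, lymphoma minus wild type, and lines are 95% intervals from the limma fit with 2 arrays a group. The intervals of Il9r (-1.31 to -0.28) and Il10ra (-1.16 to -0.33) exclude 0 before adjustment over all genes, and those of Il6ra and Lifr are the widest.

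Il6st, Il6ra, Lifr and Il27ra make up the gp130 branch. Il6st, the shared signalling chain, had intensities of 3125 and 2864 in wild type and 2562 and 1508 in lymphoma (probe set 10407173). Both lymphoma values were below wild type, array 2 much further than array 1. The log2 difference was -0.61 (SE 0.27, 95% interval -1.25 to 0.04, limma adjusted p = 0.358). With lymphoma array 1 left out the Il6st difference was -0.99, and leaving out lymphoma array 2 gave -0.22. Each of these fits holds 1 lymphoma array and describes that array, not the group.

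Il6ra, which binds interleukin 6 before gp130 joins the complex, was split between the lymphoma arrays. The wild type arrays read 1895 and 2151, lymphoma array 1 read 2105 and lymphoma array 2 read 704 (probe set 10499655). Lymphoma array 1 thus lay within the wild type range, while array 2 was well below it. The group difference of -0.73 (SE 0.48, 95% interval -1.89 to 0.43, limma adjusted p = 0.593) averages over this split. Against the wild type mean, the log2 difference was 0.06 for lymphoma array 1 and -1.52 for lymphoma array 2. Markers of macrophages and monocytes, cells that also carry Il6ra, summed to 2070 on lymphoma array 1 and 3170 on lymphoma array 2. Among them Lyz2 differed most in intensity, with 415 on lymphoma array 1 and 1436 on array 2. Csf1r (229.7 and 318.5), Cd68 (520 and 616), Cd14 (62.7 and 140) and Spic (75.2 and 116) were also higher on array 2. Adgre1 was nearly level (115.3 and 116.5), and Vcam1 (556 and 360) and Mrc1 (93.7 and 69.8) were lower on array 2. The part of these cells in the Il6ra values was not tested.

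Lifr is the partner of gp130 for leukaemia inhibitory factor. Array medians over all probe sets were 130 to 142. Lifr lay above the median on wild type array 1, near it on lymphoma array 1, below it on wild type array 2 and well below it on lymphoma array 2. It read 199 and 111 in wild type and 135 and 50.2 in lymphoma (probe set 10422822). The groups overlapped and replicates of both groups differed widely. Its log2 difference of -0.85 (SE 0.50, 95% interval -2.05 to 0.36, limma adjusted p = 0.534) was -1.56 (adjusted p = 0.00185) without lymphoma array 1 and -0.13 without lymphoma array 2. No detection calls were used here, so a signal of this size could not be set against background.

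Il27ra encodes the specific chain for interleukin 27, which pairs with gp130. Its values were 2673 and 2711 in wild type and 3106 and 3267 in lymphoma (probe set 10580061). Replicates agreed closely and both lymphoma values were above wild type. The log2 difference was small, 0.24 (SE 0.15, 95% interval -0.12 to 0.60, limma adjusted p = 0.561), with a range of 0.21 to 0.28 on leaving out single arrays.

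Among the 9 chains the lymphoma arrays differed most from each other at Il6ra, Lifr and Il6st. Going from lymphoma array 1 to array 2, the log2 value changed by -1.58 for Il6ra, by -1.43 for Lifr and by -0.77 for Il6st. In absolute size these gaps stood at percentiles 98.5, 98.1 and 93.1 of all genes. Il2rb differed the other way, by 0.61, and Il27ra, the remaining gp130 partner, differed by 0.07. The corresponding gaps between the wild type arrays were 0.18 for Il6ra, -0.84 for Lifr, -0.13 for Il6st and -0.15 for Il2rb. Across the 9 chains the median absolute gap was 0.37 in lymphoma and 0.15 in wild type, against 0.21 and 0.22 over all genes. The difference between the lymphoma arrays is one between 2 single arrays and could not be tested.

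**Figure D3:**
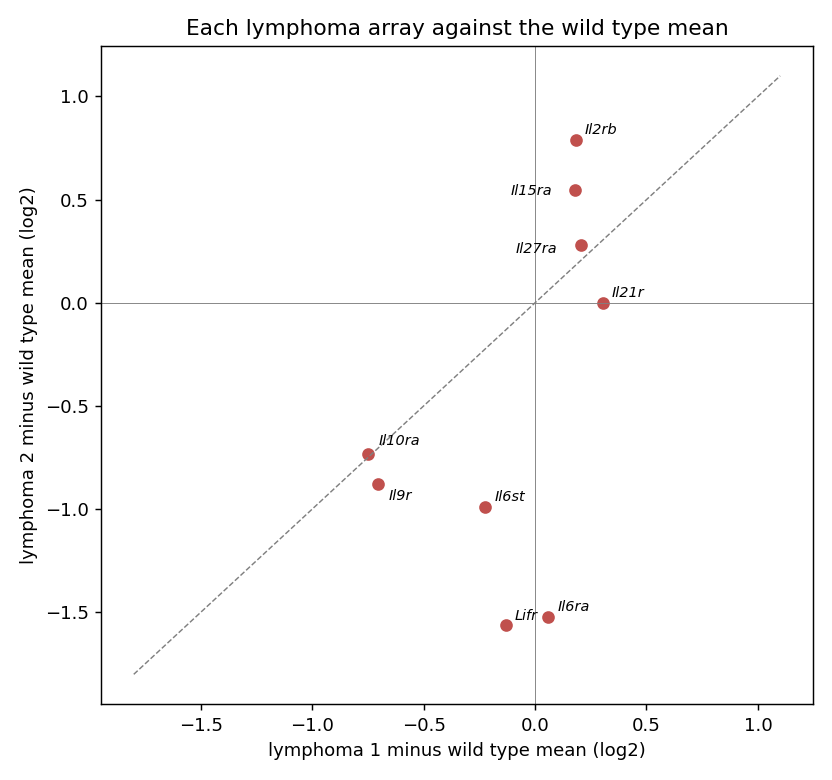
Each point is a receptor chain, placed by the log2 difference of lymphoma array 1 (horizontal) and of lymphoma array 2 (vertical) from the wild type mean. The dashed line marks equal differences. Il10ra lies on it at -0.75 and -0.73, whereas Il6ra (0.06 and -1.52), Lifr (-0.13 and -1.56) and Il6st (-0.22 and -0.99) lie below it.

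Promoter sequences are shown for these 3 gp130 chains, which shared the low value on lymphoma array 2, and for Il9r, which was low on both lymphoma arrays. Promoter windows of RefSeq (GRCm38.p6) were found for 6 of the 9 measured chains, in 8 windows. Il2rb, Il10ra and Il27ra had no entry. Each line gives the 250 bases before the annotated start, 5′ to 3′ on the gene's strand, with CpG dinucleotides, the sites at which cytosine methylation mostly occurs, in capitals. They lie at chr3:89913197-89913446 (minus strand) for Il6ra, chr13:112463820-112464069 (plus strand) for Il6st, chr15:7129322-7129571 (plus strand) for the CpG-rich start of Lifr and chr11:32200280-32200529 (minus strand) for Il9r.
Il6ra: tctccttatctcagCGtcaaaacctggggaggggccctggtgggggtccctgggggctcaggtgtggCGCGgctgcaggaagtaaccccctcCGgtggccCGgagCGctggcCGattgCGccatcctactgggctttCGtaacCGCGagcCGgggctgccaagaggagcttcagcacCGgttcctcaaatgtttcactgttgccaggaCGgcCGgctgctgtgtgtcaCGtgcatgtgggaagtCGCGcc
Il6st: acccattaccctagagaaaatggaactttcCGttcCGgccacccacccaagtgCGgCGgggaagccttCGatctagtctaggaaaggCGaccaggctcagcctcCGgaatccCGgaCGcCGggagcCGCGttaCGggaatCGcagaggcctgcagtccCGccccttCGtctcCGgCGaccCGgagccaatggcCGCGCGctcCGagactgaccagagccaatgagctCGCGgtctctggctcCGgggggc
Lifr: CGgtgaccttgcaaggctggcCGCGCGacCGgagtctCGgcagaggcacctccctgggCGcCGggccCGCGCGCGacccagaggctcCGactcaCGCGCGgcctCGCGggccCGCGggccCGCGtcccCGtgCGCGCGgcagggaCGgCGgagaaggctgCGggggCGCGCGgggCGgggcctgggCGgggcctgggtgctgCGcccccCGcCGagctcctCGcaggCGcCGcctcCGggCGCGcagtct
Il9r: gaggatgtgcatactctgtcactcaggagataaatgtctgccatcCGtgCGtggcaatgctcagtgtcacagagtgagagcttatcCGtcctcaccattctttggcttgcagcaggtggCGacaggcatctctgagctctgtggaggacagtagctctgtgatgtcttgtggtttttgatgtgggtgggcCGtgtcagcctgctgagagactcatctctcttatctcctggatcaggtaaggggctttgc

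These windows held 18 CpG in Il6ra, 26 in Il6st and 43 in Lifr, and 5 in Il9r. The median over all 32851 windows was 6, with quartiles of 2 and 16. A second annotated start of Lifr, at chr15:7140292-7140541, had 3 CpG. Il21r had 4, and the starts of Il15ra had 2 and 12. Methylation was not measured in these samples. The STAT motif, TTC and GAA with any 3 bases between, was searched on both strands of the whole 300-base windows, which add 50 bases after the start. It occurred in 0 of the 8 member windows and in 8.3% of all windows. The STAT6 form with 4 bases between (6.95% of all windows), the interferon response motif of GAAA repeated after 2 bases (3.44%) and an NF-kappaB form of GGG and TTCC with 3 bases between (5.56%) also had no match in the 8 windows. Matches of different motifs were allowed to overlap. This says only that these letters are not in these windows.

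Other chains of the same and related receptors were described from a list of 16, of which 15 were measured. Here 1 gene was called higher, 2 were called lower and 12 did not pass, with a median log2 difference of -0.21. Over all genes 1.82% were called higher and 2.46% lower. Osmr, which pairs with gp130 as the receptor for oncostatin M, rose from intensities of 43.1 and 52.1 in wild type to 441 and 346 in lymphoma. Both lymphoma values were far above both wild type values. The log2 difference was 3.04 (SE 0.21, 8.24-fold, limma adjusted p = 0.0026). The wild type Osmr signals were below the array medians and could not be set against background, so the size of this fold is uncertain. Il4ra, the specific chain for interleukin 4 and partner of the common gamma chain, fell from 1727 and 1655 to 933 and 824, by 0.95 on the log2 scale (SE 0.17, limma adjusted p = 0.038). Il12rb2, the inducible chain of the interleukin 12 receptor and a relative of gp130, fell from 336 and 376 to 139 and 67.4 (log2 difference -1.88, SE 0.34, limma adjusted p = 0.038). These 3 calls, like all calls on single genes, were lost without wild type array 1 and also without array 2 of that group.

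The common gamma partners Il7r and Il2ra, picked out after their values were seen, were split between the lymphoma arrays as Il6ra was. Il7r, the interleukin 7 receptor chain that marks resting T cells, read 4043 and 3922 in wild type, 4299 on lymphoma array 1 and 959 on lymphoma array 2. Its log2 difference of -0.97 (SE 0.63, limma adjusted p = 0.588) did not pass. Il2ra, the high-affinity chain for interleukin 2, read 1826 and 1270 in wild type and 1716 and 672 in lymphoma (log2 difference -0.50, SE 0.44, limma adjusted p = 0.722). For both genes lymphoma array 1 lay in or just above the wild type range and array 2 below it. Not all chains of the list did so. Il4ra differed by only -0.18 between the lymphoma arrays on the log2 scale. Il23r, a chain of the interleukin 23 receptor also picked after its values were seen, went the other way, with 157 on lymphoma array 1 and 3365 on array 2 against 115 and 66.3 in wild type (log2 difference 3.06, SE 1.28, limma adjusted p = 0.33).

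Among 16 measured ligands of these receptors, 3 were called higher, 1 was called lower and 12 did not pass, with a median of -0.04. The shares over all genes were 1.82% higher and 2.46% lower. Lif, which signals through Lifr and gp130, rose from 104 and 99.8 to 430 and 711 (log2 difference 2.44, SE 0.27, 5.43-fold, limma adjusted p = 0.0080). The wild type Lif signals, like those of Osmr, were below the array medians, so the size of this fold is uncertain. Ebi3, the subunit shared by interleukins 27 and 35, rose from 514 and 377 to 1378 and 1390 (log2 difference 1.65, SE 0.21, limma adjusted p = 0.012). Il7, a survival factor of resting T cells that is mostly made by stromal cells, rose from 40.6 and 49.2 to 115 and 84.2 (log2 difference 1.14, SE 0.22, limma adjusted p = 0.046). The Il7 signals are dim, and the call was lost without the variance trend (adjusted p = 0.054). Clcf1, a ligand of the ciliary neurotrophic factor receptor complex, fell from 637 and 637 to 244 and 339 (log2 difference -1.15, SE 0.22, limma adjusted p = 0.043). That call was lost under quantile normalization (0.060) and with array medians subtracted (0.072).

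Il6 itself, chosen after its values were seen, read 10.8 and 18.2 in wild type, 12.4 on lymphoma array 1 and 183 on lymphoma array 2. The high value therefore fell on the array where Il6ra and Il6st were lowest. Its log2 difference was 1.77 (SE 1.13, limma adjusted p = 0.583). Il21, picked in the same way, was high on lymphoma array 1 only, with 2596 against 315 on array 2 and 592 and 486 in wild type.

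**Figure D4:**
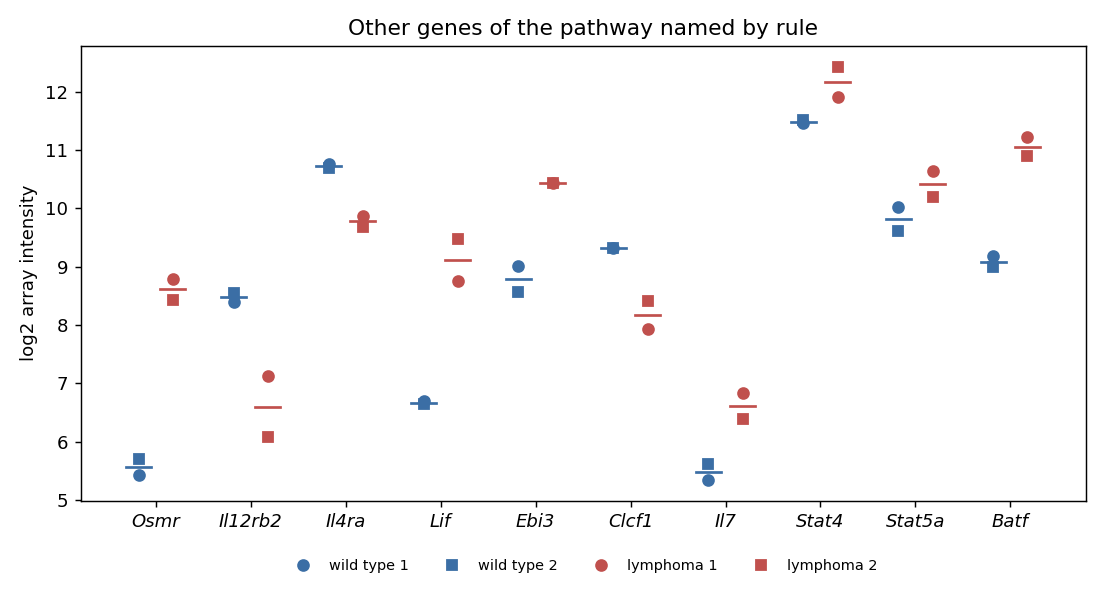
Log2 array intensities on the 4 arrays are plotted for the pathway genes named by rule, with wild type in blue, lymphoma in red, circles for replicate 1, squares for replicate 2 and bars at group means. Osmr (3.04), Lif (2.44), Ebi3 (1.65), Il7 (1.14) and Batf (1.97) were called higher and Il12rb2 (-1.88), Il4ra (-0.95) and Clcf1 (-1.15) lower, as log2 differences, while Stat4 and Stat5a were not called.

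Downstream of the receptors, 0 of 9 measured JAK kinases and STAT factors were called, with a median log2 difference of 0.11. With 4.27% of all genes called, a list of this size would often hold none. Stat4, the factor of interleukin 12 signalling, read 2819 and 2905 in wild type and 3842 and 5509 in lymphoma (log2 difference 0.69, SE 0.20, limma adjusted p = 0.159). Stat5a, used by the interleukin 2 family, read 1038 and 779 in wild type and 1601 and 1169 in lymphoma (log2 difference 0.60, SE 0.24, limma adjusted p = 0.295). In both genes the groups did not overlap, as was so for 44.1% of all genes. Without lymphoma array 1 the difference was 0.94 for Stat4 and 0.38 for Stat5a, and without lymphoma array 2 it was 0.42 and 0.83. Of 20 feedback and target genes, 1 was called higher and 0 lower, beside 1.82% and 2.46% of all genes, and the median was 0.17. That gene was Batf, an AP-1 family factor that acts with IRF4 downstream of interleukin 21, which read 584 and 507 in wild type and 2390 and 1899 in lymphoma (log2 difference 1.97, SE 0.20, limma adjusted p = 0.0068). This median was 0.06 with wild type array 2 left out and 0.33 with array 1 of that group left out.

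The genes whose pattern over the 4 arrays was most like that of Il2rb, the chain with the highest difference, were Laptm4b (distance 0.08), Max (0.08) and Ccdc126 (0.09). Those most like Lifr, the chain with the lowest difference, were Filip1l (0.28), Lrrc32 (0.28) and Pcp4 (0.30). The measure was the Euclidean distance between log2 values, each gene centred on its own mean, over 4 arrays. It describes these arrays only, since among 19938 genes some resemble any pattern of 4 values.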

How the data were processed

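Per the labels' protocols, cells of spleen were tagged with a biotinylated CD4 antibody and separated on magnetic columns. No purity is stated. The deposited intensity values are linear, 1 for each of 35556 probe sets and 4 arrays. They were made with Affymetrix Expression Console, per the submitters' processing notes. The sources used here do not state how probes were summarised or normalized.

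From these, log2 was taken with no pseudocount or filter. Of the probe sets, 21789 had 1 symbol, 1621 had several and 12146 were not listed. The brightest single-symbol probe set stood for a gene (19938 genes, 999 with several). Groups were compared by limma 3.58.1 under R 4.3.3, fitting group alone with a variance trend. Tests were two-sided, p-values were adjusted by Benjamini-Hochberg over all genes, and there were 2 residual and 4.24 prior degrees of freedom. The procedure was tested on simulated data, in which it missed most of the smaller changes put in. Named genes are all members, then up to 5 called genes of each pathway list, or the 2 largest differences where none was called, and the 3 genes nearest to the members with the highest and lowest difference. Members and lists were chosen with earlier results of these data known. Alternatives were other normalizations, variance models, filters, array weights, the replicate block and leaving out each array. For pathway genes these settings were chosen after seeing the data. Plots used matplotlib 3.10.9.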

Additional observations from a re-analysis of the deposited data

How the results depend on the processing

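None of the 9 chains passed in the fit with all 4 arrays or under the 8 alternatives that keep all of them. With 1 array left out, the number of chains called higher lay between 0 and 1 and the number called lower between 0 and 3, and the calls (Il2rb higher, and Il6ra, Il6st and Lifr lower) came only without lymphoma array 1. Over all genes, 0 to 1057 were then called higher and 0 to 843 lower. Il6ra ranged from -1.52 without lymphoma array 1 to 0.06, a change of sign, without lymphoma array 2. Il21r was at 0 without lymphoma array 1. Of 108 recomputed differences of chains, 103 kept their direction and side of the threshold and 1 reversed. The others grew in the fit where lymphoma array 2 stood alone. The count of 103 includes Il21r at 0. It also includes settings that left each chain's difference as it was, so direction could not change there. These were the level filter, the variance models, averaged probe sets, the replicate block and array weights. With the replicate block 0 chains were called, 429 genes were higher and 555 lower, and the call on Il7 was lost (adjusted p = 0.051). Same-numbered arrays deviated together at r = 0.23 across genes, and the labels do not say that the numbers pair samples. Without a wild type array no gene was called, and the spread then came from the lymphoma pair. Detection calls were not used, so dim signals such as that of Lifr on lymphoma array 2 could not be set against background.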
